A study of Mus musculus with 2 samples.

Results

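The genes described here are 46 mouse genes of mitosis and the spindle, out of 27975 distinct gene names on the array. They were chosen by name and function, by matching gene symbols in the files (Cdk1 is printed there under its older symbol Cdc2a), and the matching used no measured value, although earlier results of these data were known when the list was made. Expression was measured in sorted regulatory T cells (Tregs), a CD4 T cell type that holds immune reactions in check under the transcription factor Foxp3, from mice that lacked or kept Bcl11b, a transcription factor of the T cell lineage. Each of 2 arrays set 1 pool of Bcl11b-deficient cells, labelled with the dye Cy5, against 1 pool of wild-type cells, labelled with Cy3, and no array had the dyes swapped. On the first array, here the Cd4Cre array, the deficient cells came from Bcl11bF/F/Cd4Cre/Foxp3-GFP+ mice, in which Cre is expressed under Cd4 control and so from the thymus onwards in T cells, and both pools were sorted as Foxp3-GFP+ cells. On the second, the Foxp3Cre array, the deficient cells came from Bcl11bF/F/Foxp3Cre mice, in which Cre is made where Foxp3 is expressed, and the labels do not say how either pool was gated. That array was given its Cre system from the design text, because the labels put the GFP gate on the other one. All 4 pools were of C57BL\6 background, each wild-type pool came from 3 mice, and the labels give no age and no number of deficient mice. With 1 array for each Cre system there is no replicate of either comparison, and values "with Cd4Cre" or "with Foxp3Cre" are those of that array.

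Cells enter mitosis when cyclin A and cyclin B activate the kinase Cdk1, which Cdc25 phosphatases free from inhibitory phosphorylation. Aurora and Polo-like kinases then build the spindle, kinetochores attach chromosomes to it, and the spindle checkpoint holds the anaphase-promoting complex until every chromosome is attached. Many of these genes share one transcription programme: the MuvB core, which forms the repressor DREAM in resting cells and joins B-Myb and Foxm1 in dividing ones, binds the cell cycle homology region (CHR) in their promoters and the factor NF-Y binds nearby CCAAT boxes, so that their RNA is abundant in dividing cells and low in resting ones.

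The brighter Bcl11b probe gave log2 ratios of deficient over wild type of -2.46 (Cd4Cre array) and -1.82 (Foxp3Cre array), and the other one -1.19 and -0.32. The deleted stretch of Bcl11b is not named in the labels, so it is unknown whether these probes lie in it. The labelled cell type was checked against markers. Of 9 Treg markers with a probe, 7 were at least 2-fold lower in deficient cells on the Cd4Cre array, with a median log2 ratio of -2.32 and a summed signal of 96875 in deficient against 372590 in wild-type cells, and Foxp3 read -3.57. On the Foxp3Cre array the Treg median was 0.15, the summed signal 139361 in deficient against 125691 in wild-type cells, and Foxp3 read -0.20. In deficient cells all 7 neutrophil markers were at least 2-fold higher on each array, with summed signals of 245183 against 2664 on the Cd4Cre array and 165529 against 36012 on the Foxp3Cre array. Of 6 markers of myeloid progenitors, a cell type that divides, 5 were detected with Cd4Cre and 4 with Foxp3Cre, and all of these were at least 2-fold higher in deficient cells (medians 2.46 and 1.78), with summed signals of 8247 in deficient against 1086 in wild-type cells and 7222 in deficient against 2106 in wild-type cells. Only 2 of them were well above background in wild-type cells on each array. The others counted as detected through the deficient pool alone, so the size of their ratios is uncertain. All summed signals include markers that were not detected. NK cell markers at least 2-fold higher numbered 5 of 5 on the Cd4Cre array (median 3.78) and 1 of 5 on the Foxp3Cre array (median 0.70). CD8 T cell markers at least 2-fold higher numbered 2 of 2 with Cd4Cre (median 1.88) and 0 with Foxp3Cre (median 0.05). Of 5 CD4 T cell markers, 0 were above 0 with Cd4Cre (median -0.89) and 2 with Foxp3Cre (median -0.05). The thymocyte markers Rag1, Rag2 and Ptcra and the B cell marker Pax5 were not well above background in any pool, but others of their lists were. The thymocyte list also holds Dntt, which read 0.62 with Cd4Cre and 1.08 with Foxp3Cre, and Cd8a (2.56 and 0.08). Of 5 detected B cell markers, 5 were above 0 with Cd4Cre (median 0.88) and 2 with Foxp3Cre (median -0.14). In such bulk pools, fewer cells of a type and less RNA per cell cannot be told apart, and the part of these other cells in the results that follow was not tested.

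Of the 46 genes, 39 have an entry among RefSeq promoters (GRCm38.p6), in 42 windows of 250 bases before to 50 bases after a transcription start. The CHR, searched as TTTGAA on both strands, stood in 26 of the 39 genes and in 69.0% of their windows, against 17.9% of all 32851 RefSeq windows of this length. A CCAAT box on either strand stood in 29 genes and 76.2% of windows, against 37.4% of all windows. Both motifs stood together in 23 genes and 61.9% of windows, against 6.95% of all windows. The CHR variant TTTAAA was found in 10 genes (23.8% of windows, against 13.2%). The E2F motif GGCGGGAA was found in 1 gene (2.38% of windows, against 2.19%) and the motif TTTGGCGC in 0 genes, against 0.514% of all windows. Matches of the CHR, its variant and the CCAAT box did not overlap one another in a window of these genes. Overlap with the E2F motifs was not examined. These are letter matches and not shown to be sites, and the genes were chosen for a function whose promoters are known for CHR and CCAAT elements.

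The promoters of 6 genes are printed to show this layout, each as 150 bases, from 120 before to 30 after the start, on the gene's own strand. Cdk1 and Ccnb1 form the main mitotic kinase. Spc25 and Ect2 were at least 2-fold higher on both arrays, Ccnf differed most between the arrays, and Nusap1 holds none of the searched CHR, variant or CCAAT letters. Capitals mark TTTGAA, its variant TTTAAA, and the box CCAAT, or the reverse complement of any of these. The windows are chr10:69352883-69353032 (minus strand) for Cdk1, chr13:100786457-100786606 (minus) for Ccnb1, chr2:69206184-69206333 (minus) for Spc25, chr3:27153849-27153998 (minus) for Ect2, chr17:24251380-24251529 (minus) for Ccnf and chr2:119618178-119618327 (plus) for Nusap1, all on GRCm38.p6.
Cdk1: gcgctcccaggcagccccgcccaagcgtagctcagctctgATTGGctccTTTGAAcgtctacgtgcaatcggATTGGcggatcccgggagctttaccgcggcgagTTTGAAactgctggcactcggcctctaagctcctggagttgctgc
Ccnb1: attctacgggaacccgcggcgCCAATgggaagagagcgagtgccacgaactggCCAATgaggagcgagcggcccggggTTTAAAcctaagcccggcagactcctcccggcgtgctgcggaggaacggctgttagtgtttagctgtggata
Spc25: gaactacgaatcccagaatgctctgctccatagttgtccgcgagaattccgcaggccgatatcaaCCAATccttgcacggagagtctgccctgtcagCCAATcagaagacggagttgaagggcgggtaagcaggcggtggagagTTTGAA
Ect2: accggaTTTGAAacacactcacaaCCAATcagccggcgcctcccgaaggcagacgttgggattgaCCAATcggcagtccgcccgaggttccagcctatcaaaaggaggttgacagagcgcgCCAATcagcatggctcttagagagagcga
Ccnf: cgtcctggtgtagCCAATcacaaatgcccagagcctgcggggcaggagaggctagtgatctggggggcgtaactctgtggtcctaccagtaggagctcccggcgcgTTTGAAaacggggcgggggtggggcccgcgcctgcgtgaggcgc
Nusap1: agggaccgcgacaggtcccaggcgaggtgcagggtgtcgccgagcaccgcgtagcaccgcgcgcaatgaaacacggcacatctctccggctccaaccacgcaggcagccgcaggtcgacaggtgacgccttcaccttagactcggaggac

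In these windows Cdk1 has CHR matches that begin at -71 and -15 from the start and CCAAT boxes at -80 and -48. Ccnb1 has the variant at -42 and CCAAT boxes at -99 and -67. Across all windows of the mitosis genes, 61.9% held a CHR match that began from 50 bases before to 49 after the start, against 4.94% of all RefSeq windows, and 64.3% held a CCAAT box that began in the 100 bases before the start, against 19.3%. Besides Nusap1, the genes with none of the 3 motifs were Mad2l1, Nuf2, Pttg1 and Tacc3.

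**Figure D1:**
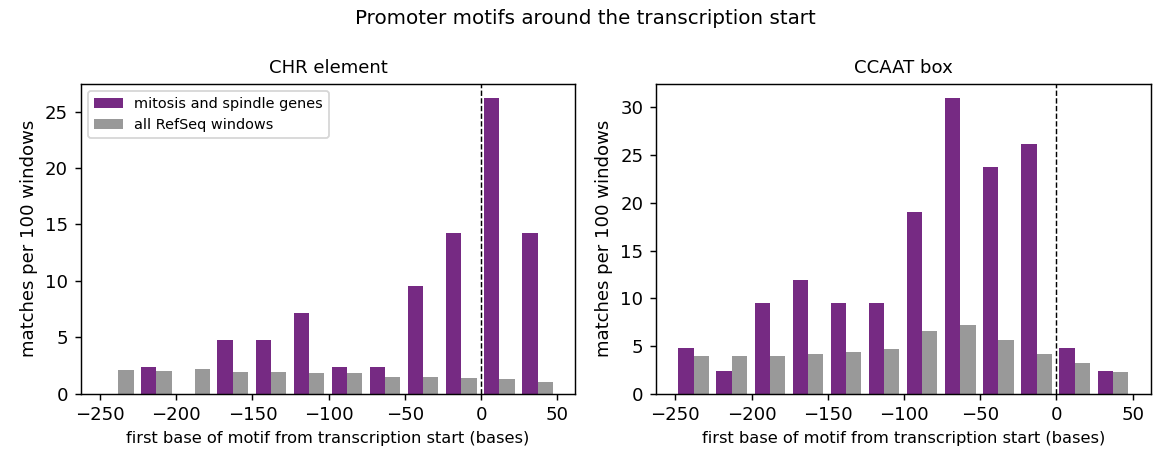
Matches of the CHR and of the CCAAT box per 100 RefSeq promoter windows (vertical axis) by distance of the first base from the transcription start (bases, horizontal axis), as bars for the 42 windows of the mitosis genes (purple) and for all 32851 windows (grey). CHR matches of the mitosis genes gather around the start and CCAAT matches just before it, and the purple bars there stand above the grey ones.

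All 46 mitosis genes had a log2 ratio above 0 on the Cd4Cre array, from 0.23 for Bub3 to 2.67 for Birc5, against 47.2% of all genes detected there, and their median was 1.52. A ratio of 1 is a 2-fold difference. Of the 46 genes, 35 were at least 2-fold higher in deficient cells, against 11.4% of the 15872 genes detected on that array, and 0 were at least 2-fold lower, against 10.6%. On the Foxp3Cre array the median was 0.35 over the 45 genes detected, 7 were at least 2-fold higher (background 2.94% of 15189 genes) and 2 at least 2-fold lower (background 11.5%). The median of all detected genes was -0.05 with Cd4Cre and -0.08 with Foxp3Cre. On the Foxp3Cre array 32 of the 45 ratios were above 0, against 45.4% of all detected genes.

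**Figure D2:**
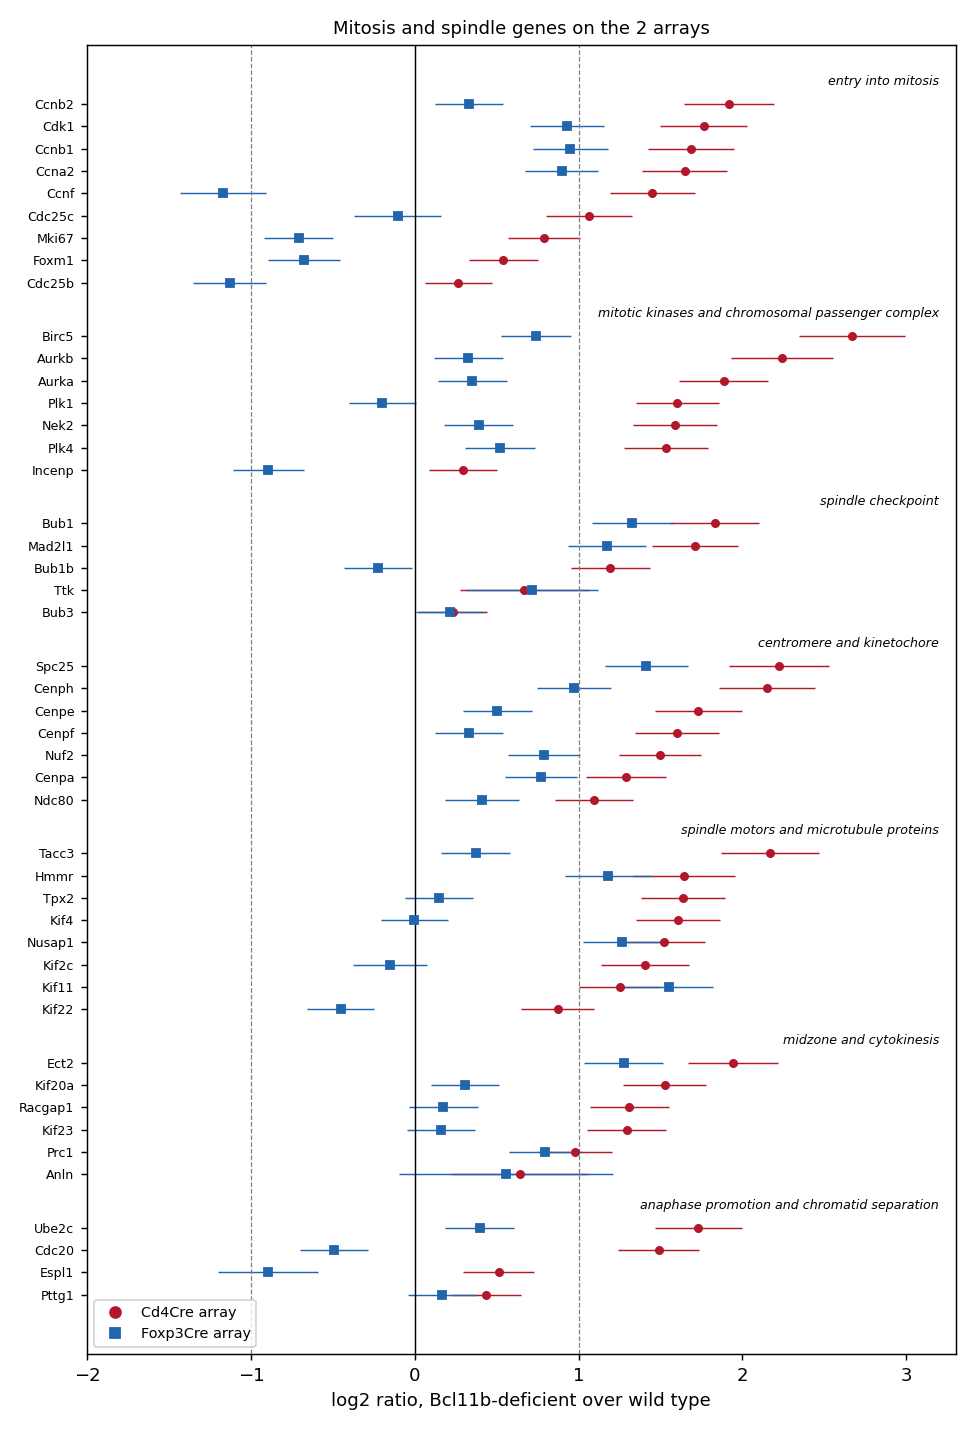
Log2 ratio of deficient over wild type (horizontal axis) for each of the 46 genes, grouped by role, on the Cd4Cre and Foxp3Cre arrays, with bars for the scanner software's error of the single spot ratio. Every Cd4Cre point lies right of 0, from 0.23 to 2.67, and most Foxp3Cre points lie to their left.

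Of the genes of entry into mitosis, 9 of 9 read above 0 with Cd4Cre and 4 of 9 with Foxp3Cre. The shares of all detected genes were 47.2% and 45.4%, so the Foxp3Cre count is near the background. Ccnb1, a cyclin partner of Cdk1, had log2 signals of 12.59 in deficient against 10.90 in wild-type cells on the Cd4Cre array (ratio 1.69), and 12.59 in deficient against 11.64 in wild-type cells on the Foxp3Cre array (0.95). Its 3 probes well above background spanned 1.69 to 1.80 and 0.95 to 1.30. Cdk1, the kinase itself, read 12.99 against 11.22 on the Cd4Cre array (1.76) and 12.41 against 11.48 on the Foxp3Cre array (0.93), deficient before wild type. Ccna2, the cyclin that acts in S phase and early mitosis, read 1.65 and 0.90, and the second B-type cyclin Ccnb2 read 1.92 and 0.33.

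Ccnf, the cyclin F that serves as substrate receptor of a ubiquitin ligase, went opposite ways. Its log2 signal was 10.68 in deficient against 9.23 in wild-type cells on the Cd4Cre array (ratio 1.45, 2.73-fold higher), and 8.45 in deficient against 9.62 in wild-type cells on the Foxp3Cre array (-1.17, 2.25-fold lower). The deficient pool was the higher one on the first array and the lower one on the second, each time by more than the software error of 0.26. Cdc25b, a phosphatase that activates Cdk1, read 13.96 against 13.69 (0.27) on the Cd4Cre array and 12.38 against 13.51 (-1.13, 2.19-fold lower) on the Foxp3Cre array, deficient before wild type. The related phosphatase Cdc25c read 1.07 and -0.10. Foxm1, the transcription factor that drives mitotic genes, read 0.54 and -0.68, and Mki67, the protein that coats mitotic chromosomes and marks dividing cells, read 0.79 and -0.71. The second Mki67 probe read 1.47 and -0.97, and median centring gave 1.53 with Cd4Cre and -0.003 with Foxp3Cre, so whether Mki67 was 2-fold higher with Cd4Cre depends on the probe and the scaling. Of these 9 genes, 6 were at least 2-fold higher with Cd4Cre (median 1.45), against 11.4% of all genes. On the Foxp3Cre array 0 were at least 2-fold higher, against 2.94%, and 2 were at least 2-fold lower, against 11.5% (median -0.10). Over 9 genes these Foxp3Cre counts are no result about the group.

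Among mitotic kinases and the chromosomal passenger complex, which corrects faulty attachments of chromosomes, 6 of 7 genes were at least 2-fold higher with Cd4Cre. The share of all genes on that array was 11.4%. Birc5, the survivin subunit of the passenger complex, had log2 signals of 16.56 in deficient against 13.90 in wild-type cells on the Cd4Cre array (2.67, 6.35-fold), and 15.58 against 14.83 on the Foxp3Cre array (0.74, 1.67-fold), deficient before wild type. Aurkb, the kinase of the complex, read 11.37 against 9.13 on the Cd4Cre array (2.24) and 11.68 against 11.35 on the Foxp3Cre array (0.33), deficient before wild type. The wild-type signal of Aurkb was higher on the second array, and its deficient signals differed less. Incenp, the scaffold subunit, read 0.29 and -0.89, so the subunits of the complex did not share one ratio on either array. The spindle pole kinase Aurka read 1.89 and 0.35, the kinase Plk1, which acts throughout mitosis, 1.60 and -0.20, the centriole duplication kinase Plk4 1.53 and 0.52 (1.28 and 1.29 at its other probe well above background), and the centrosome kinase Nek2 1.59 and 0.39. On the Foxp3Cre array 0 of the 7 were at least 2-fold higher or lower at the brightest probe, with a median of 0.35. The shares of all genes there were 2.94% higher and 11.5% lower, so a count of 0 among 7 is near the background.

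The spindle checkpoint had 3 of 5 genes at least 2-fold higher with Cd4Cre and 2 on the Foxp3Cre array. Mad2l1, which inhibits Cdc20 at unattached kinetochores, had log2 signals of 12.87 in deficient against 11.16 in wild-type cells on the Cd4Cre array (1.71), and 12.61 against 11.43 on the Foxp3Cre array (1.17), deficient before wild type. Both of its probes showed this, with ratios of 1.63 and 1.71 on the Cd4Cre array and of 1.17 and 1.29 on the Foxp3Cre array. Bub1b, a checkpoint kinase homologue that binds Cdc20, read 1.19 and -0.23. Bub3, the partner of Bub1, read 0.23 and 0.21 at its brightest probe, but its 3 probes well above background spanned 0.23 to 1.18 and -0.68 to 0.59, so its direction on the Foxp3Cre array depends on the probe. Ttk, the kinase that starts the checkpoint, was dim and read 0.67 and 0.72.

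Bub1, the kinase that recruits checkpoint proteins to kinetochores, had probes that disagreed. At the brighter probe (chr2:127626988-127627047, minus strand, mm9) its log2 signal was 11.91 in deficient against 10.08 in wild-type cells on the Cd4Cre array (1.83), and 12.48 against 11.15 on the Foxp3Cre array (1.33), deficient before wild type. The second probe (chr2:127626326-127626385), which the files pair with another transcript accession, read 9.75 against 9.80 (-0.06) and 10.73 against 10.84 (-0.11), deficient before wild type. The first probe showed higher deficient pools on both arrays and the second showed pools within 0.11 of each other, so the Bub1 values in the counts rest on the first. The sequences of both probes are shown because their readings differ.
Bub1, first probe: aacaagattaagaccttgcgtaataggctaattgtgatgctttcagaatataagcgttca
Bub1, second probe: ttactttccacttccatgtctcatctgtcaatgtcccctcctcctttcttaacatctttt

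All 7 genes of the centromere and kinetochore were at least 2-fold higher in deficient cells on the Cd4Cre array, against 11.4% of all genes. On the Foxp3Cre array all 7 were above 0, from 0.33 to 1.41 (median 0.77), against 45.4% of all genes. Spc25, a subunit of the Ndc80 complex that grips microtubules, had log2 signals of 12.01 in deficient against 9.79 in wild-type cells on the Cd4Cre array (2.22, 4.67-fold), and 11.99 against 10.57 on the Foxp3Cre array (1.41, 2.66-fold), deficient before wild type. The other measured subunits of that complex were Nuf2 (1.50 and 0.79) and Ndc80 (1.09 and 0.41). Cenph, of the inner kinetochore, read 2.15 and 0.97 at its brighter probe and 1.12 and 0.18 at the other. Cenpe, the kinesin that moves chromosomes to the spindle equator, read 1.73 and 0.50, Cenpf, a large kinetochore protein of late G2 and mitosis, 1.60 and 0.33, and Cenpa, the histone H3 variant that marks centromeres, 1.29 and 0.77.

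Of 8 spindle motors and microtubule proteins, 7 were at least 2-fold higher with Cd4Cre (median 1.57), against 11.4% of all genes. On the Foxp3Cre array 3 were at least 2-fold higher (median 0.26), against 2.94%. Kif11, the kinesin that pushes spindle poles apart, had log2 signals of 10.55 in deficient against 9.30 in wild-type cells on the Cd4Cre array (1.25, 2.38-fold), and 10.99 against 9.44 on the Foxp3Cre array (1.55, 2.93-fold), deficient before wild type. Kif11 and Ttk, whose difference of 0.05 lay within its software errors, were the 2 exceptions among 46 genes to a lower ratio on the Foxp3Cre array. Nusap1, which bundles spindle microtubules, read 13.43 against 11.91 (1.52) and 13.49 against 12.22 (1.27), deficient before wild type, but 0.66 at its other probe on the Foxp3Cre array. The spindle assembly factor Hmmr read 1.64 and 1.18. Tacc3, which stabilises spindle microtubules with Aurka, read 2.17 and 0.37, and Tpx2, which activates Aurka, 1.64 and 0.15. The microtubule-depolymerising kinesin Kif2c read 1.41 and -0.15, and the chromosome-bound kinesin Kif22 read 0.87 and -0.45. Kif4, another chromosome-bound kinesin, read 1.61 on the Cd4Cre array and had equal log2 signals of 11.63 in deficient and wild-type cells on the Foxp3Cre array. The probes that carry the Kif11 and Spc25 results lie at chr19:37495755-37495814 (plus strand) and chr2:69038061-69038120 (minus strand) on mm9, and are shown because these genes had the highest ratios on the Foxp3Cre array.
Kif11: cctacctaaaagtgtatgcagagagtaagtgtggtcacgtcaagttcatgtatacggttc
Spc25: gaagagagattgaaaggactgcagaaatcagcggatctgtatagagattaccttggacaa

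The midzone and cytokinesis genes build the central spindle and divide the cell. Of these 6 genes, 4 were at least 2-fold higher with Cd4Cre, against 11.4% of all genes. Ect2, which activates RhoA for the contractile ring, had log2 signals of 12.70 in deficient against 10.76 in wild-type cells on the Cd4Cre array (1.94), and 12.74 against 11.46 on the Foxp3Cre array (1.27), deficient before wild type; its second probe read 1.05 and 0.60. Kif23 (1.29 and 0.16) and Racgap1 (1.31 and 0.17), the subunits of the centralspindlin complex that recruits Ect2, had nearly the same pair of ratios, although the second Racgap1 probe read 0.46 on the Cd4Cre array. The midzone kinesin Kif20a read 1.52 and 0.31, and the microtubule bundler Prc1 0.98 and 0.80. Anln, the ring scaffold anillin, was well above background only in the deficient pool of the Cd4Cre array, where it was at least 1.56-fold higher (log2 signal 8.28 in deficient against 7.64 in wild-type cells), and in neither pool of the Foxp3Cre array. That bound compares the deficient signal with the wild-type one, which lay above the dimmest wild-type signal accepted as well above background, and is open to dye bias.

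Of the 4 genes of anaphase, 2 were at least 2-fold higher with Cd4Cre and 0 on the Foxp3Cre array, against 11.4% and 2.94% of all genes. The Foxp3Cre count is near that background. Cdc20, the activator of the anaphase-promoting complex, had log2 signals of 15.57 in deficient against 14.08 in wild-type cells on the Cd4Cre array (1.49), and 14.65 against 15.14 on the Foxp3Cre array (-0.49), deficient before wild type. Ube2c, the ubiquitin-conjugating enzyme of that complex, read 1.73 and 0.40. Espl1, the separase that cuts cohesin, read 0.51 and -0.89, and its inhibitor Pttg1, securin, 0.44 and 0.17. The sign of 5 genes on the Foxp3Cre array turned under another processing: Cdc20, Kif22 and Plk1 read 0.41, 0.28 and 0.21 with median centring in place of loess, and Cdc25c and Kif4, both within their software error of 0, turned under other alternatives. On the Cd4Cre array 0 of 46 genes changed sign under any alternative.

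**Figure D3:**
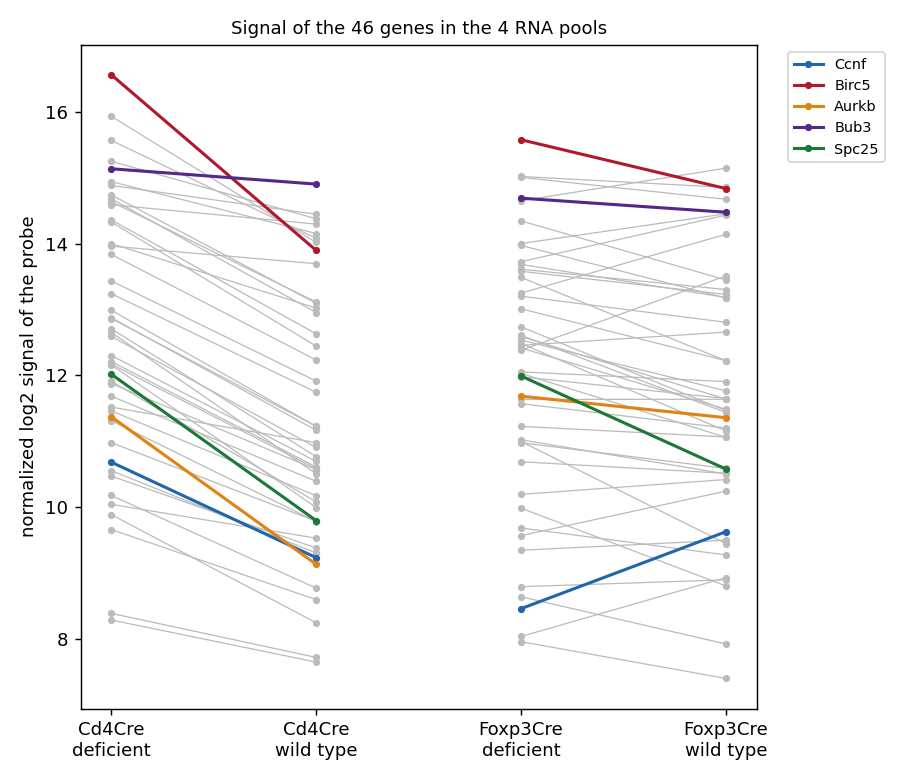
Normalized log2 signal (vertical axis) of the 46 genes in the deficient and wild-type pools of each array, deficient left of wild type, with a line joining the pools of one array and 5 genes in colour. Ccnf slopes opposite ways on the Cd4Cre and Foxp3Cre arrays, while Spc25, Birc5 and Aurkb are higher in the deficient pool of both and Bub3 is nearly level.

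The arrays were then compared gene by gene, without a test, since each Cre system has 1 array. Of the 46 genes, 44 had a lower ratio on the Foxp3Cre than on the Cd4Cre array, against 58.0% of all genes detected on both. Anln, not detected on the Foxp3Cre array, is counted among the 44 and in the 46 of this paragraph. The median difference, Foxp3Cre minus Cd4Cre, was -1.18 (from -2.62 to 0.30), against -0.14 for all genes. In the deficient pools the signal was higher on the Foxp3Cre than on the Cd4Cre array for 9 of 46 genes, with a median difference of -0.64 against -0.12 for all genes. In the wild-type pools it was higher on the Foxp3Cre array for 37 of 46 genes, with a median difference of 0.42 against 0.08 for all genes. Slide, scan and software version also differ between the arrays and cannot be told apart from the Cre system. The pools differ as well, since the labels give the GFP gate for the Cd4Cre array only. Summed wild-type signals on the Cd4Cre and Foxp3Cre arrays were 372590 and 125691 for Treg markers and 2664 and 36012 for neutrophil markers. For B cell markers they were 22889 and 70385. The part of these pool differences in the array differences was not tested.

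The 7 genes at least 2-fold higher on the Foxp3Cre array were Bub1, Mad2l1, Nusap1, Kif11, Hmmr, Spc25 and Ect2, and each was also at least 2-fold higher with Cd4Cre (background for both arrays 1.34% of 14374 genes). No gene was at least 2-fold lower on both, against 4.56%. Above 0 on both were 33 of the 46, Anln included, against 30.2% of all genes. A further 13 genes were above 0 on the Cd4Cre array and below 0 on the Foxp3Cre array, against 17.8% of all genes. The software error of a single ratio was 0.21 to 0.42 for these genes on the Cd4Cre array and 0.20 to 0.65 on the Foxp3Cre array. By that measure 46 genes were above 0 on the Cd4Cre array, while on the Foxp3Cre array 28 were above 0, 9 below 0 and 9 within the error of 0. The count of 7 on the Foxp3Cre array was 19 with median centring, where the median of all genes also moved, to 0.16, and 13.5% of all genes were at least 2-fold higher. It was 4 with the mean over a gene's probes, where Mad2l1, Hmmr and Spc25 remained and Ccnb1 joined them.

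**Figure D4:**
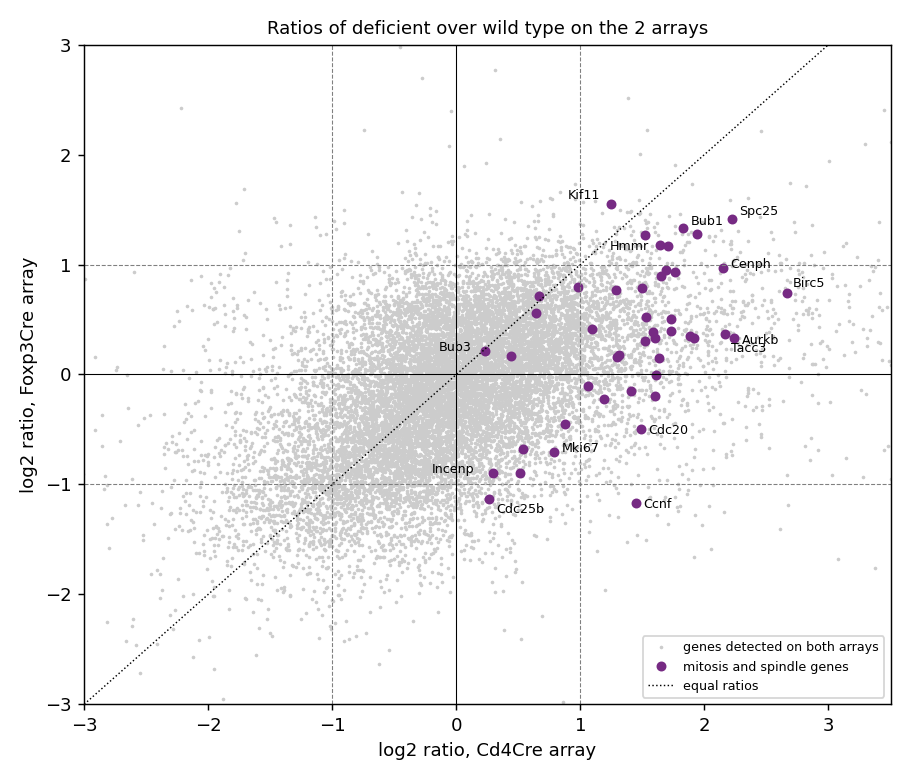
Log2 ratio of deficient over wild type on the Foxp3Cre array (vertical axis) against that on the Cd4Cre array (horizontal axis) for the mitosis genes (purple) over all genes detected on both arrays (grey). Grey genes beyond the axis limits are not drawn. The mitosis genes lie right of 0 and mostly below the diagonal, with Ccnf lowest and Kif11 highest on the Foxp3Cre axis.

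The only test that the design allows is limma's moderated test of the mean ratio of both arrays against 0. It takes the gap between Cre systems as the spread, and draws each gene's spread towards that of all genes. With Benjamini-Hochberg adjustment over 14374 genes, 0 of the 45 mitosis genes detected on both arrays passed an adjusted p of 0.05, as did 0 (0.0%) of all genes. At an unadjusted p under 0.05 there were 25 of the 45, all with a mean above 0, against 8.51% of all genes with a p under 0.05 and a mean above 0. The lowest adjusted p among them in limma was 0.100, shared by Bub1, Mad2l1, Cenph, Kif11, Nusap1, Spc25, Ect2 and Hmmr. Spc25 had a mean of 1.82 ± 0.36 (limma's moderated SE, 2 arrays) and Kif11 a mean of 1.40 ± 0.33. Such an SE rests largely on the spread of all genes, not only on the gap of that gene. With median centring limma called 7 of them (Ccna2, Birc5, Bub1, Mad2l1, Nusap1, Spc25 and Ect2, lowest adjusted p 0.0411), against 2.17% of all genes.

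Genes with and without a CHR match were also set side by side. The 26 genes with TTTGAA had a median ratio of 1.36 with Cd4Cre and 0.33 with Foxp3Cre. The 13 without it had medians of 1.69 and 0.74. Among these 13, Birc5, Ccnb1, Cenpe and Plk4 hold the variant TTTAAA, so the split is by TTTGAA alone. The 26 include Anln, which was not detected on the Foxp3Cre array. On the Foxp3Cre array 9 of the 26 genes with the motif and 1 of the 13 without it were below 0. The probes' GC content had the same median of 43.3% for the mitosis genes and for all genes. Pearson r of ratio and GC content over the mitosis genes was -0.18 with Cd4Cre and -0.26 with Foxp3Cre. Over all detected genes it was -0.06 and -0.13. The brighter and dimmer 23 genes had median ratios of 1.60 and 1.41 on the Cd4Cre array and of 0.35 and 0.37 on the Foxp3Cre array.

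Other genes of the cell cycle were listed by function. A further 76 mitosis genes had 50 of 73 detected genes at least 2-fold higher with Cd4Cre (median 1.40), against 11.4% of all genes. On the Foxp3Cre array 14 of 75 were at least 2-fold higher (median 0.54), against 2.94%. The highest of these mitosis genes were Cenpw, a centromere protein (3.03), on the first array and the spindle kinesin Kif15 (1.60) on the second. Numa1, which anchors spindle poles, was lower on both (-1.57 and -1.17). Its second probe read -0.30 and -1.23, so the size of the Cd4Cre value depends on the probe. Of 28 S-phase genes, 17 were at least 2-fold higher with Cd4Cre (median 1.10) and 0 on the Foxp3Cre array (median 0.27), where 3 were at least 2-fold lower, including the helicase subunit Mcm2 (-1.31). Rrm2, a subunit of ribonucleotide reductase, read 2.79 and 0.93.

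Of 10 G1 genes, 4 were at least 2-fold higher with Cd4Cre (median 0.48) and 1 of 9 detected on the Foxp3Cre array (median -0.44). Ccne2, a cyclin of the G1 to S step, read 2.35 and 1.61, and Ccnd2, a G1 cyclin, -1.14 and -1.02. The list of the anaphase-promoting complex held 15 genes, its subunits and a further activator. The subunits are known to vary little over the cell cycle. The 15 genes had medians of 0.06 and 0.02, with 1 at least 2-fold higher with Cd4Cre (Anapc11, 1.04) and 1 at least 2-fold lower on the Foxp3Cre array (Anapc2, -1.12). Among CDK inhibitors, 4 of 7 were at least 2-fold higher with Cd4Cre and 0 of the 4 detected on the Foxp3Cre array. One of them, Cdkn2a, was at least 6.11-fold higher with Cd4Cre, with the wild-type pool not well above background, and was not detected in either pool of the Foxp3Cre array. Of 23 genes of the DREAM, MuvB, E2F and NF-Y regulators, 3 of 21 detected were at least 2-fold higher with Cd4Cre (median 0.47) and 1 of 22 on the Foxp3Cre array (Lin9, 1.06; median 0.05). The E2F repressor E2f8 read 1.24 and 0.13, and E2f7 read 1.08 and -0.12. The shares of all genes were 11.4% and 2.94% at least 2-fold higher, and 10.6% and 11.5% at least 2-fold lower. The counts of these regulators and of the anaphase-promoting complex are close to that background. So are the Foxp3Cre counts of S-phase genes, higher and lower, and of CDK inhibitors. These counts are no result about those lists.

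**Figure D5:**
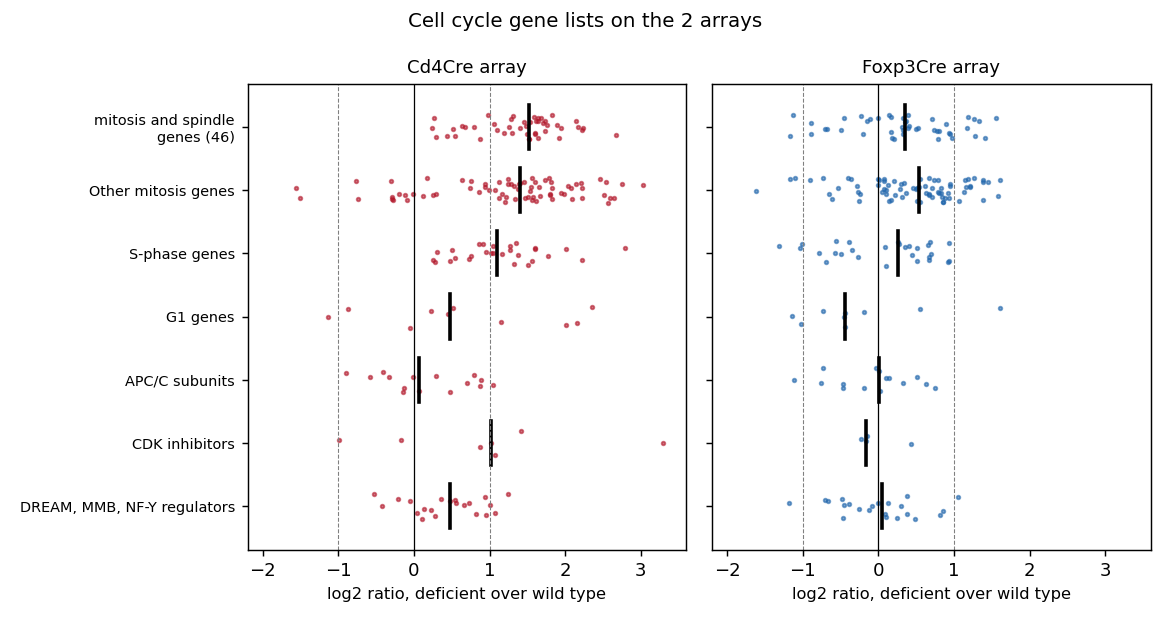
Log2 ratio of deficient over wild type (horizontal axis) of each detected gene in the mitosis list and 6 other cell cycle lists (rows), for each array, with black bars at the medians. The mitosis lists (1.52 and 1.40) and the S-phase list (1.10) lie farthest right on the Cd4Cre array, and the anaphase-promoting complex lies near 0 on both.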

How the data were processed

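RNA of sorted Tregs was hybridised to 2 Agilent arrays of 60-base probes, on each of which Cy3 carried wild-type and Cy5 carried Bcl11b-deficient RNA, per the labels. The image software was Agilent Feature Extraction, version 10.5.1.1 for the Cd4Cre and 10.7.3.1 for the Foxp3Cre array per the file headers, and 10.5.1 per the submitters' processing notes. For every spot and channel the authors deposited the scanned mean intensity and the median intensity of the local background, as well as a log10 ratio (red over green) that the software had corrected for background, spatial trend and dye, with an error. The deposited value table was identical to that log10 ratio (largest difference 0; median 0 on each array), so its scale and direction are known.

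The deposited intensities were corrected by normexp with an offset of 50. Loess normalization of the log2 ratios was done array by array in limma 3.58.1 (R 4.3.3), giving control spots a weight of 0. Signals per channel are log2 values after Aquantile normalization. Outlier-marked spots (137 and 155 of 43379 gene-probe spots, 0 of the mitosis genes) were left out, and 0 spots were saturated. Spots well above background numbered 21773 for deficient and 24439 for wild-type cells (Cd4Cre), and 20689 for deficient and 23446 for wild-type cells (Foxp3Cre). The number of arrays limits the precision. Probes spotted several times (245) had a median SD of 0.056 and 0.071 on the log2 scale. A RefSeq table of GRCm38.p6 named 24780 of 41174 probes by accession, 6033 by symbol and 1810 by synonym, 8475 kept the file's name, and 76 are the probes of the mitosis genes. Each gene's value comes from the probe that was brightest over both arrays. A gene counted as detected on an array if that probe was well above background in either channel there. Of the 46 genes, 23 had a single probe, and 45 were well above background in both channels of both arrays. Among 16 genes with several such probes on an array, the ratios of a gene spanned a median of 0.43 (Cd4Cre) and 0.29 (Foxp3Cre). These probes share their RNA and are not replicates. The software error is the deposited error, converted to log2.

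No test was made within an array, where genes were counted at 2-fold. The mean of both arrays was tested by limma (intercept only, 1 residual degree of freedom, Benjamini-Hochberg). In 20 simulated data sets of its 14374 genes, the median share recovered was 4% at a 2-fold change, 79% at 4-fold and 100% at 8-fold, and 10.3% of calls were false, above the nominal level. The members and the gene lists were chosen with earlier results of these data known. All 46 genes could be named, and from each other list the 3 highest and 3 lowest detected genes of each array. Foxp3, Rag1, Rag2, Ptcra and Pax5 were named in addition, after their values were seen. Alternatives were no background subtraction, offset 10, median centring, the software's ratio, the deposited table, averaging a gene's probes, dropping or tightening the filter on dim probes, marked spots kept, an intensity trend in limma and, chosen after seeing the data, removal of the trend with probe GC content. Motifs were searched in RefSeq promoter windows of GRCm38.p6. Probe coordinates follow the files (mm9), and exon or UTR placement was not analysed here.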

Additional observations from a re-analysis of the deposited data

Results flagged for a closer look

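For 9 mitosis genes the ratio lay above 0 by more than the software's error on the Cd4Cre array and below 0 by more than that error on the Foxp3Cre array. With 1 array for each Cre system this difference was not tested. The difference in log2 ratio, Foxp3Cre minus Cd4Cre, was -2.62 for the cyclin Ccnf, -1.98 for the anaphase activator Cdc20, -1.50 for the proliferation marker Mki67, -1.42 for the checkpoint gene Bub1b, -1.41 for the separase gene Espl1 and -1.40 for the phosphatase gene Cdc25b. It was -1.32 for the kinesin gene Kif22, -1.22 for the transcription factor gene Foxm1 and -1.19 for Incenp of the passenger complex. With median centring Cdc20 and Kif22 were above 0 on both arrays (0.41 and 0.28 on the Foxp3Cre array) and Mki67 was close to 0 on the Foxp3Cre array (-0.003). Slide, scan, software version, the labelled gate and the marker signals of the wild-type pools also differ between the arrays.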

How the results depend on the processing

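On the Cd4Cre array the count of mitosis genes at least 2-fold higher lay between 29 and 40 and their median between 1.30 and 1.69 over all 10 alternatives, with 0 genes at least 2-fold lower. The deposited table holds the same values as the software's ratio, so these alternatives repeat each other in every count of this section. On the Foxp3Cre array the count of 7 was 19 with median centring, 11 with the software's ratio and likewise 11 with the deposited table, and 4 with the mean over a gene's probes. All 7 remained at least 2-fold higher with median centring and with the software's ratio, and 3 under the mean over probes, which includes probes not above background. The 2 genes at least 2-fold lower became 1 with median centring and 1 with the GC trend removed. The Foxp3Cre median of 0.35 became 0.67 with median centring, where the median of all genes was 0.16 against -0.08, and 36 genes were above 0. Limma called 7 mitosis genes with median centring and 0 under the other alternatives, with a lowest adjusted p from 0.0411 to 0.235. The cause of these shifts was not tested. Of 368 values per array for single genes over 8 alternatives, 44 on the Cd4Cre and 47 on the Foxp3Cre array moved by more than the software error. No value of at least 2-fold changed sign. No paired analysis was possible because each Cre system has 1 array, on which deficient and wild-type cells are already read together. The number of arrays and the single dye orientation limit every value: a dye effect of a probe stays in its ratio on both arrays.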
